A study of Mus musculus with 2 samples.

Results

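Cardiomyocytes are joined end to end at intercalated discs, where desmosomes anchor the intermediate filaments and adherens junctions anchor the actin of the sarcomeres. The 10 genes described here encode the core of both junctions: the desmosomal cadherins Dsg2 and Dsc2, the desmosomal plaque proteins Jup (plakoglobin), Pkp2 (plakophilin 2) and Dsp (desmoplakin), the classical cadherin Cdh2 (N-cadherin), the catenins Ctnnb1 (beta-catenin), Ctnna1 (alpha-E-catenin) and Ctnna3 (alpha-T-catenin), and the actin-binding protein Vcl (vinculin). They were chosen by symbol, and all 10 were found among 55536 annotated genes. The libraries were made from 300 ng of total RNA of whole hearts of female B6CASTF1/J mice, hybrids of the C57BL/6J and CAST/EiJ strains, at 14 days of age, with ERCC spike-in RNAs added. There was 1 group of 2 libraries, with no treatment or second genotype. The labels give both the same donor identifier, name 3 females in the description that both share and give each heart its own number, so the spread between the libraries may be partly technical. With 1 group, the design allows a description only and no test between conditions.

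In the junction, cadherins of neighbouring cells bind each other outside the cell. Inside, armadillo proteins bind the cadherin tails: beta-catenin and plakoglobin at Cdh2, plakoglobin and plakophilin at Dsg2 and Dsc2. Alpha-catenins and vinculin then reach actin, and desmoplakin reaches desmin. In mammalian hearts the components of both junctions mix in a compound structure called the area composita, and variants of DSP, DSG2, DSC2, PKP2 and JUP are known from arrhythmogenic cardiomyopathy. Beta-catenin is also the transcriptional effector of Wnt signalling.

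The libraries held 36404376 expected counts in replicate 1 and 34569708 in replicate 2, and their counts differed by 12.6 chi-square units per degree of freedom, where sampling noise alone gives about 1. Markers of airway and other epithelium summed to 186 TPM in replicate 1 and 21.3 in replicate 2. Of the 12 markers, 5 reached 1 TPM in both libraries. Secretory genes of airway carried this difference, with Scgb1a1 at 97.6 and 5.96 TPM, Scgb3a2 at 41.4 and 2.35 and Scgb3a1 at 24.4 and 0.75. The keratins Krt19 and Krt18 were at 7.27 and 6.88 and at 2.05 and 2.12 TPM. Sftpc went the other way, with 0 counts in replicate 1 and 16 in replicate 2. TPM is a relative abundance corrected for transcript length that sums to the same total in each library. The 10 cardiomyocyte markers summed to 38537 and 40179 TPM, with all 10 detected and the highest levels in Myh6, Myl2, Actc1 and Atp2a2, so the defining markers of the labelled tissue were present. In whole tissue, fewer cells of a type and less RNA per cell cannot be told apart.

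Some of the differences between transcripts described below rest on short stretches of sequence, so those stretches are shown here, from GENCODE M21 on mm10 (C57BL/6J). The long desmoplakin transcript Dsp-201 and the shorter Dsp-202 use different ends of exon 23 (chromosome 13, ending at 38193655 and 38191858). Both then continue at 38194696. The shorter form thereby lacks 1797 bases, or 599 codons, of the rod domain. Dsp-202 has no base that the other Dsp transcripts lack, and only the junction sets it apart within the coding sequence. The 30 bases before each junction are in lower case and the 30 bases after it, which are the same in both, in capitals.
Dsp-201: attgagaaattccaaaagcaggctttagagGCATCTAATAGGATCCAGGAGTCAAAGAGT
Dsp-202: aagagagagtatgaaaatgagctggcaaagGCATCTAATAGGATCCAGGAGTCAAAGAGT

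Ctnnb1-215 is annotated as a retained intron of 1 exon on chromosome 9. Of its 1292 bases, 1199 are those of the last exon of the coding transcript Ctnnb1-201, and its own 93 bases (120959216 to 120959308) are the end of the intron before it. The intronic bases are in lower case and the first 30 bases of the exon in capitals.
Ctnnb1-215: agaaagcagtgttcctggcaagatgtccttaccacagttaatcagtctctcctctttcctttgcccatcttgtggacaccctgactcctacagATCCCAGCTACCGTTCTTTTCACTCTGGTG

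Jup-205 is a noncoding transcript of 502 bases on the minus strand of chromosome 11, none of which is its own. It joins a first exon of 26 bases (100386716 to 100386741, lower case) to the coding transcript's exon (100386365 to 100386388 shown, in capitals).
Jup-205: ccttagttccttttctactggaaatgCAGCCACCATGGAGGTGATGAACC

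All 10 genes were at 10 TPM or more in both libraries, as were 10.6% of all annotated genes. At the lower threshold of 1 TPM, which 22.8% of annotated genes reached in both, all 10 were likewise present. Their levels spanned more than 10-fold. Ctnna1 and Ctnnb1 stood at the top and the desmosomal cadherins at the bottom, while the third catenin gene, Ctnna3, was just above those cadherins.

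**Figure D1:**
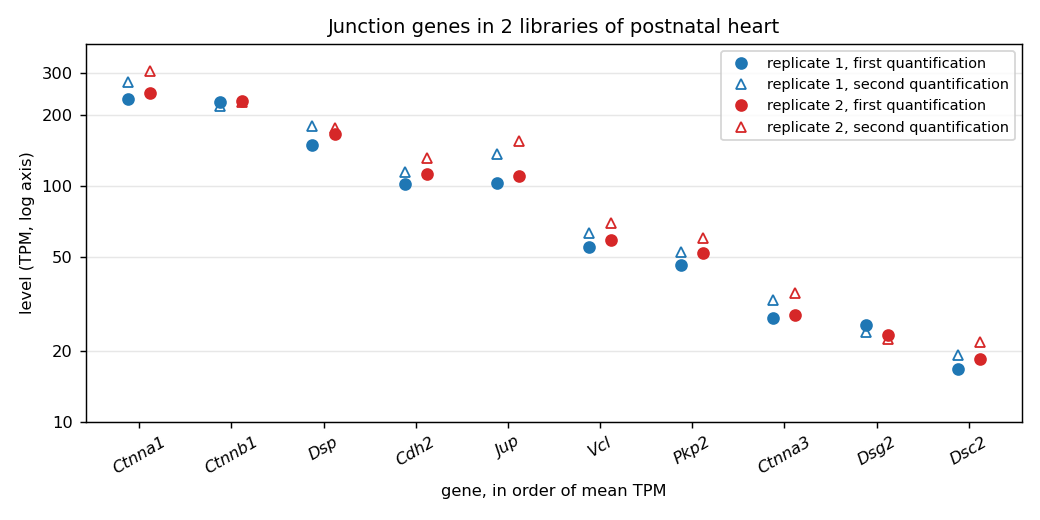
Level of each gene in TPM (log axis), in order of mean TPM, with filled circles for the first quantification, open triangles for the second, blue for replicate 1 and red for replicate 2. Ctnna1 and Ctnnb1 lie above 200 TPM in all values, and Dsg2 and Dsc2 lie between 16.7 and 25.8 TPM.

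The transmembrane members were led by Cdh2. N-cadherin is the only classical cadherin known at the cardiomyocyte disc. Cdh2 (ENSMUSG00000024304.14, chromosome 18, 16588877 to 16809246, minus strand) had a level of 102 TPM (replicate 1) and 113 TPM (replicate 2), or 107 ± 7.94 (SD, n = 2), with 11803 and 12757 expected counts. Dsg2, the desmoglein of simple epithelia and heart (ENSMUSG00000044393.15, chromosome 18, 20558074 to 20604521), was at 25.8 and 23.4 TPM, from 2758 and 2694 counts. Dsc2, its desmocollin partner (ENSMUSG00000024331.11, chromosome 18, 20030633 to 20059554, minus strand), was at 16.7 and 18.5 TPM, from 2075 and 2212 counts. Both desmosomal cadherins thus stood well below Cdh2 in each library: their sum was 42.2 ± 0.467 TPM. Between them, Dsg2 was higher in both libraries, 1.54-fold and 1.27-fold in TPM, a log2 ratio of 0.48 ± 0.20. That order depended on short transcripts. The 953-base Dsg2-203, which codes for 292 codons where Dsg2-201 has 1122, took 38.1% and 28.9% of the TPM of Dsg2 in replicates 1 and 2 but 8.55% and 5.83% of its counts. Counting only transcripts that code for at least 75% of the gene's longest coding sequence, Dsg2 was at 15.6 and 16.3 TPM and Dsc2 at 16.2 and 17.9 (log2 ratio -0.10 ± 0.06, in the opposite direction).

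The armadillo layer was more abundant than the cadherins it binds. Ctnnb1 (ENSMUSG00000006932.17, chromosome 9, 120929216 to 120960507) stood at 226 and 229.6 TPM, or 228 ± 2.35. Jup, which serves both junction types (ENSMUSG00000001552.14, chromosome 11, 100368958 to 100397763, minus strand), was at 102 and 110.2 TPM, or 106 ± 5.52. Pkp2, which recruits desmoplakin to the plaque (ENSMUSG00000041957.15, chromosome 16, 16213318 to 16272712), was at 46.3 and 52.0 TPM, or 49.2 ± 4.02. The levels of these genes did not overlap between any of the 3. Beta-catenin exceeded its close relative plakoglobin 2.21-fold and 2.08-fold in TPM, a log2 ratio of 1.10 ± 0.06. The ratio was smaller in long coding transcripts alone (0.56 ± 0.06) and in the second quantification (0.62 ± 0.08). As a sum, the armadillo genes Ctnnb1, Jup and Pkp2 reached 383 ± 11.9 TPM beside 149 ± 7.47 TPM of Cdh2, Dsg2 and Dsc2. In long coding transcripts these sums were 250.4 ± 14.5 and 137 ± 9.31 TPM. Cdh5, at 101 and 93.4 TPM, and other cadherins of whole heart are outside the cadherin sum. The sums therefore do not set the armadillo genes against all cadherins of the tissue.

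Linkers to the cytoskeleton summed to 484 ± 25.8 TPM. Ctnna1, the general alpha-catenin (ENSMUSG00000037815.7, chromosome 18, 35118859 to 35254779), was the highest of the 10 in both libraries, at 234 and 249 TPM. Its lead over Ctnnb1 was 1.04-fold and 1.08-fold. Dsp, the desmoplakin gene (ENSMUSG00000054889.10, chromosome 13, 38151294 to 38198577), stood at 149 and 167 TPM, the largest spread in TPM of the 10 (158 ± 12.5). It also had the most counts, 37489 and 40235, since its transcripts are long. Vcl (ENSMUSG00000021823.10, chromosome 14, 20929398 to 21033676) was at 55.1 and 58.7 TPM. Ctnna3, the alpha-catenin restricted mainly to heart and testis, which binds plakophilin 2 (ENSMUSG00000060843.11, chromosome 10, 63430098 to 65003667), was at 27.4 and 28.3 TPM. It is spread over 1574 kb, the longest locus of the 10, and its libraries were among the closest, at 27.8 ± 0.615 TPM. Ctnna1 exceeded it 8.56-fold and 8.80-fold (log2 ratio 3.12 ± 0.03).

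The order of the 10 genes from Ctnna1 to Dsc2 was the same in both libraries except for neighbours Cdh2 and Jup. In TPM of the first quantification those neighbours did not differ beyond their spread: Cdh2 was 0.992 times Jup in replicate 1 and 1.02 times in replicate 2. For the other 8 pairs of neighbours the 2 values of each gene did not overlap in that measure. The second quantification put Jup above Cdh2 in both libraries, at 137 and 154 TPM beside 115 and 132. Long coding transcripts put Cdh2 above Jup in both, at 98.2 and 109 TPM beside 78.1 and 87.2. Among the 13043 genes whose mean reached 1 TPM, Ctnna1 stood at percentile 97.7, Dsp at 96.6, Cdh2 at 95.2 and Pkp2 at 89.3. The lowest, Dsc2, stood at percentile 69.5. The 5 desmosomal members summed to 356 ± 21.6 TPM and the 5 adherens junction members to 661 ± 23.6. In long coding transcripts these sums were closer, at 317 ± 23.8 and 475 ± 22.0 TPM. Jup, which serves both junction types, is counted here as desmosomal only.

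The desmogleins, desmocollins and plakins were represented almost entirely by the gene described above. Dsg2 held 99.9% ± 0.0358 of the TPM of the 6 desmogleins, and Dsc2 held 99.8% ± 0.225 of the 3 desmocollins. Desmogleins and desmocollins lie side by side on chromosome 18, and Dsc2 and Dsg2, transcribed in opposite directions, are 499 kb apart there. The 6 genes between them, in the order Dsc1, Dsg1c, Dsg1a, Dsg1b, Dsg4 and Dsg3, had at most 1 expected count per library. These are genes of stratified epithelium and hair. Dsc3, on the other side of Dsc2, had 2 counts in each library. Dsc1 and Dsg3 had 0 counts in both, which allows up to 0.0829 CPM (counts scaled to library size) in replicate 1 and 0.0873 in replicate 2, from 3 counts and for counting error only. Desmoplakin held 98.7% of the TPM of the 3 plakins, beside 1.65 and 1.73 TPM of periplakin (Ppl) and 0.39 and 0.55 of envoplakin (Evpl).

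**Figure D2:**
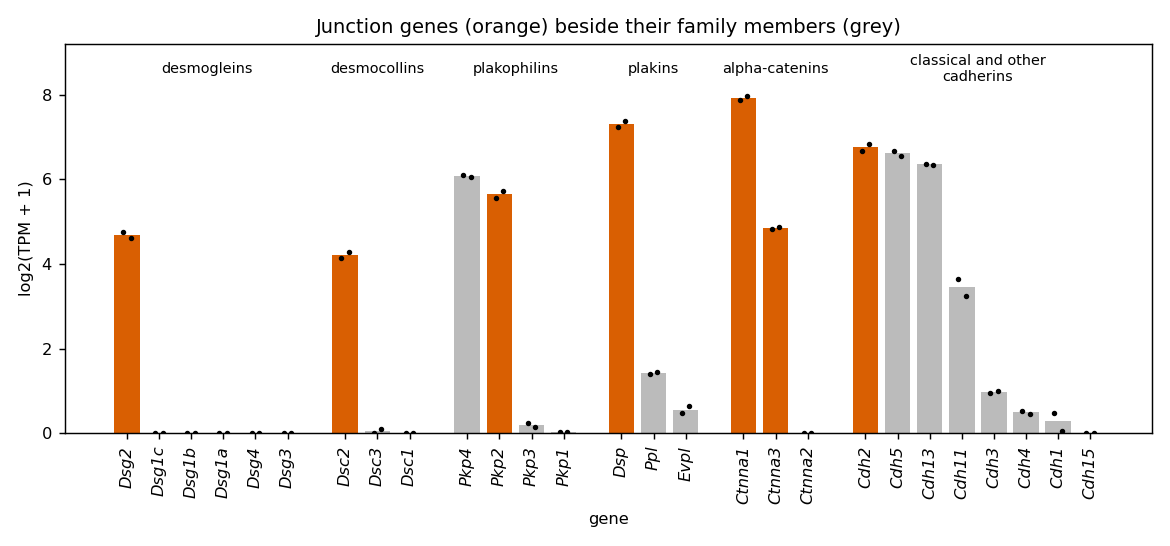
Bars show log2(TPM + 1) of the mean over both libraries for each gene and dots show each library, in orange for the junction genes and in grey for other members of their families. Dsg2, Dsc2 and Dsp stand alone in their families, while Pkp4, Cdh5 and Cdh13 reach levels near those of Pkp2 and Cdh2.

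Plakophilins, alpha-catenins and cadherins were not so one-sided. Pkp4, a relative of p120 catenin found at adherens junctions and desmosomes of many cells, was at 68.0 and 65.5 TPM, so Pkp2 held 42.3% ± 2.65 of the TPM of the 4 plakophilins. In protein-coding transcripts alone Pkp4 fell to 19.4 and 20.8 TPM, and the share of Pkp2 was 69.5% ± 0.725. Pkp1 and Pkp3, plakophilins of epithelia, had 1 to 4 counts per library. Ctnna3 held 10.3% ± 0.186 of the alpha-catenin TPM, Ctnna1 nearly all the rest, and the neural Ctnna2 had 0 and 1 counts. Cdh2 held 36.1% ± 2.73 of the TPM of 8 cadherins. Beside it stood Cdh5, the cadherin of endothelium, at 101 and 93.4 TPM, and Cdh13, a cadherin with a lipid anchor that is found in endothelium and muscle, at 81.1 and 80.6 TPM. The fibroblast cadherin Cdh11 was at 11.6 and 8.45 TPM, the 1 gene of the 4 cadherins with a mean of 1 TPM or more to be at least 1.2-fold apart, as 18.7% of all genes were. Its counts were 1275 and 1269, and its protein-coding TPM ran the other way, at 7.56 and 8.14. Cdh3 was at 0.93 and 0.99 TPM, Cdh4 at 0.44 and 0.38, and the muscle cadherin Cdh15 had 0 counts. The levels of Cdh2 and Cdh5 were close in replicate 1, and Cdh2 was the higher in replicate 2. In the second quantification Cdh5 was the higher in both, at 155 and 155 TPM beside 115 and 132 for Cdh2. In protein-coding transcripts alone Cdh13 was at 48.8 and 47.7 TPM. The epithelial Cdh1 had 36 counts in replicate 1 and 5 in replicate 2 and was at 0.40 and 0.04 TPM.

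Other genes of the disc were also detected in the RNA of whole heart. All 24 genes of a list of other intercalated disc genes were at 1 TPM or more in both libraries, as were 22.8% of all annotated genes. This list was drawn up with earlier results of these data known, so it does not measure completeness. Its median over genes was 55.4 ± 3.00 TPM, beside 81.6 ± 4.29 over the 10 genes and 9.08 over all 13043 genes. Among the highest were the intermediate filament gene Des (439 ± 4.26 TPM), the connexin Gja1 (226 ± 42.1) and the scaffold gene Sorbs2 (194 ± 7.22). Of the p120 catenins, which hold classical cadherins at the membrane, Ctnnd1 was at 44.6 and 39.2 TPM, Arvcf at 7.50 and 11.4, and Ctnnd2 at 0.09 and 0.04. The nectins, adhesion proteins of the immunoglobulin superfamily, were lower, with Nectin2 at 16.6 and 16.9 TPM, Nectin3 at 5.72 and 5.50, Nectin1 at 2.26 and 2.07, and Nectin4 at 0.06 in both. Afadin (Afdn), which links nectins to actin, was at 54.9 and 61.2 TPM over all transcripts, close to Vcl. In protein-coding transcripts alone Afdn was at 25.3 and 28.6 TPM, beside 54.2 and 57.9 for Vcl.

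The 2 libraries gave similar levels of the 10 genes. None of the 10 was at least 1.2-fold apart in TPM + 1 once the median difference of all genes was removed, whereas 18.7% of all genes were: 10.5% higher in replicate 1 and 8.29% in replicate 2. None was 2-fold apart, as 1.05% of all genes were. The rule is one of size, with 1 library on each side, and carries no p-value. The shares of all genes were not matched for level: their median was 9.08 TPM, beside 81.6 over the 10 genes. Deposited TPM was higher in replicate 2 for 9 of the 10, as for 56.1% of all genes. The largest ratios of replicate 2 to replicate 1 were 1.12 for Pkp2 and for Dsp, 1.11 for Cdh2 and 1.10 for Dsc2. After the median difference of -0.03 was removed, the median log2 difference (replicate 1 minus replicate 2) over the 10 was -0.07, beside 0 for all genes.

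Dsg2 was the gene whose TPM was lower in replicate 2, at 0.907 times replicate 1. Its counts showed no such difference. In CPM, which takes no account of length, Dsg2 was 1.03 times as high in replicate 2 (95% exact counting interval 0.976 to 1.09). The mean length assigned to its transcripts was 3899 bases in replicate 1 and 4339 in replicate 2. In long coding transcripts it was also slightly higher in replicate 2.

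In CPM all 10 genes were higher in replicate 2, as were 63.4% of all genes. The ratios ran from 1.03 for Dsg2 to 1.14 for Pkp2 and for Cdh2 (interval for Cdh2 1.11 to 1.17). The counting interval left out a ratio of 1 for 9 of the 10 and for 35.4% of all genes. Such an interval narrows as counts rise, and the shares of all genes in this paragraph were not matched for level. It covers counting error only and not the variation between animals. Deposited TPM intervals did not overlap between the libraries for 5 genes, Dsp, Cdh2, Vcl, Pkp2 and Dsc2, and for 11.8% of all genes. With scaling to the ERCC spike-ins, 7 of the 10 were higher in replicate 2, the exceptions being Dsg2, Ctnna3 and Ctnnb1, and with TMM scaling all 10 were. Some of these were nearly level between the libraries. The log2 difference (replicate 1 minus replicate 2) was -0.00106 for Vcl with the spike-ins and -0.000433 for Dsg2 with TMM. Shares of all genes under these scalings were not computed, so these counts cannot be set against a library-wide shift.

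**Figure D3:**
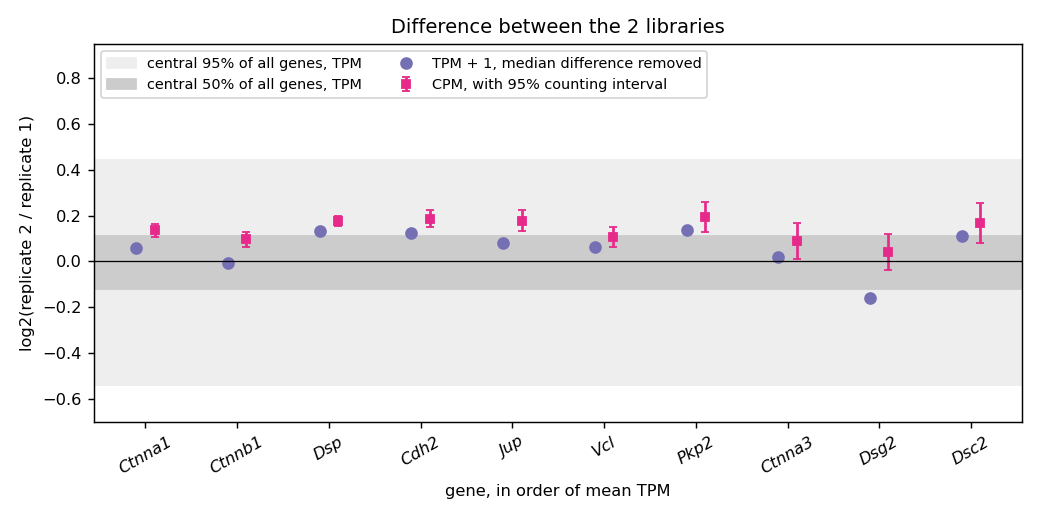
Log2 of replicate 2 over replicate 1 for each gene: circles are TPM + 1 with the median of all genes removed, squares are CPM with 95% exact counting intervals, and grey bands are the central 95% and 50% of 13043 genes in TPM + 1. Every gene lies inside the wider band, and Dsg2 is the lowest in both measures.

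Dsp, Jup, Pkp2, Dsg2 and Dsc2 are also desmosomal genes of epithelia, and the secretory genes of airway above were higher in replicate 1. Of those 5 genes, only Dsg2 had the higher TPM in replicate 1. The defining epithelial genes Epcam and Cdh1 were at 0.20 and 0.40 TPM in replicate 1, and 0.02 and 0.04 in replicate 2. The 6 markers of stratified epithelium summed to 5.73 and 4.24 TPM, with 1 of them at 1 TPM or more in both and Krt1 at 0, and the 6 of mesothelium and epicardium to 45.0 and 43.3. Endothelial markers (6 of 6 detected) summed to 383 and 386 TPM, fibroblast markers to 1110 and 1081, and those of smooth muscle and pericytes to 398 and 389. Fat markers summed to 604 and 548 TPM, most of it from Fabp4 (488 and 411), while 4 of the 6, among them Ucp1 (32.6 and 47.8) and Cidea (32.5 and 39.9), were higher in replicate 2. Macrophage markers summed to 84.3 and 65.7 TPM. The skeletal muscle list (2 of 6 detected) summed to 123 and 131 TPM, nearly all of it from Acta1, which heart also expresses. Its Myh1, Myh2 and Myh4 had 0 counts in replicate 1 and 63.3, 29.4 and 18.3 in replicate 2. Mylpf had 7 and 20 counts, while Tnni2 went the other way with 59 and 43. What part these cells have in the levels of the 10 genes was not tested.

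The 59 annotated transcripts of the 10 genes show which forms were read. In 9 of 10 genes, 50% or more of the TPM came from a single transcript, where 69.4% of all genes with 10 TPM or more and several transcripts had such a leader. In the second quantification this was so for 8 genes (66.2% of all). The same transcript led in both quantifications for 8 of the 10 (75.4% of all), the exceptions being Dsc2 and Cdh2.

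**Figure D4:**
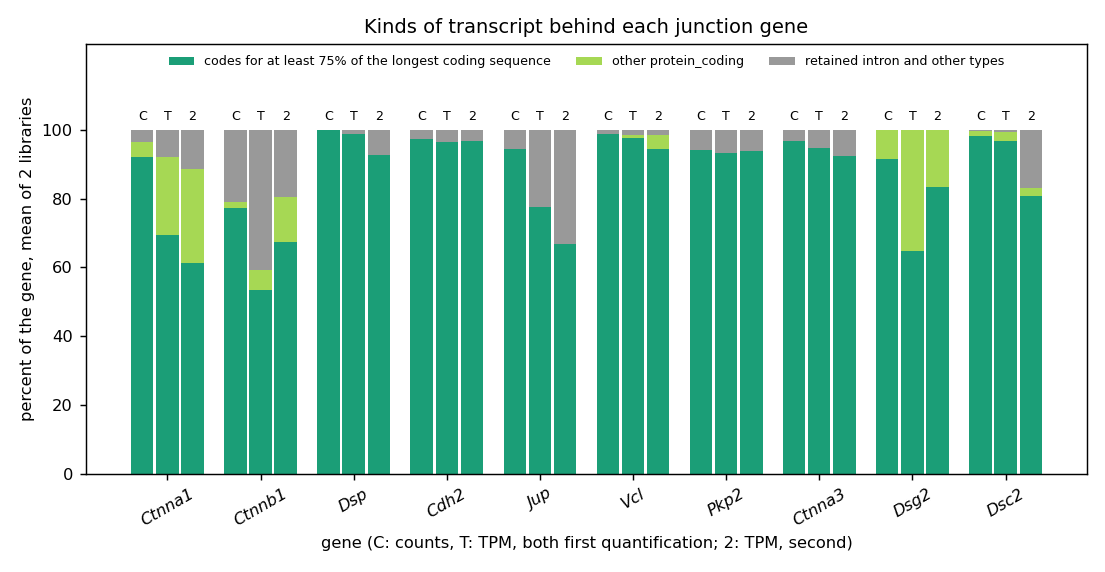
Stacked bars give the percent of each gene, as a mean of 2 libraries, in transcripts that code for at least 75% of the longest coding sequence (dark green), in other protein-coding transcripts (light green) and in retained introns and other types (grey), for counts (C) and TPM (T) of the first quantification and TPM of the second (2). Long coding transcripts hold at least 91.4% of the counts of every gene but Ctnnb1, while the TPM shares of Ctnnb1, Dsg2, Ctnna1 and Jup are far lower.

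Desmoplakin is made in a long form with a full rod domain and a short form, and the long form is known as the main one of heart. Dsp-201 held 74.5% of the TPM of Dsp in replicate 1 and 73.3% in replicate 2, and Dsp-202, defined by the junction shown above, 24.5% and 25.2%. The second quantification gave more to Dsp-201, 79.0% and 91.5%, and only 6.28% and 8.34% to Dsp-202. So the long form led in all 4 values, while the share of the short form differed 3-fold or more between the quantifications. In replicate 1 the second quantification also placed 14.7% on the noncoding Dsp-203, of 534 bases, and 0.18% in replicate 2. Its total for Dsp accordingly ran the other way, at 179 and 176 TPM.

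Dsc2 was divided between forms with different cytoplasmic tails. Dsc2-201 includes an exon of 46 bases near the 3' end and codes for 848 codons. Dsc2-202 skips it and codes for 902. Their shares were 52.9% ± 0.417 and 43.9% ± 0.0495 of TPM, with the libraries in close accord. In the second quantification they were 39.4% ± 7.61 and 41.4% ± 3.22, so the order of the 2 forms was not settled by these data, and 16.8% ± 4.94 went to Dsc2-203, a target of nonsense-mediated decay that the first quantification put at 0.49% ± 0.693.

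Cdh2 was divided between 2 starts. Cdh2-202 begins with a first exon of 112 bases, 139 kb downstream of the start of Cdh2-201, and its coding sequence is 849 codons beside 906. Its share of TPM was 53.2% in replicate 1 and 49.8% in replicate 2, and that of Cdh2-201 was 43.5% and 46.7%. In counts, and in the TPM of the second quantification, Cdh2-201 was the higher, at 51.5% ± 2.34 and 53.5% ± 2.75. Each form thus held about the same part of the gene in these tables.

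In TPM of the first quantification, beta-catenin was the gene of the 10 with no transcript at 50% or more. In counts and in the second quantification its leader held more, and the leaders of Dsc2 and Cdh2 held less than it. Ctnnb1-201, which codes for the whole protein of 781 codons, held 39.2% and 43.1% of TPM, Ctnnb1-214, with a coding sequence of the same length, 13.3% and 11.3%, and the retained intron Ctnnb1-215 held 34.6% and 36.4%. Only the 93 intronic bases shown above distinguish Ctnnb1-215 from the end of the coding transcript. In counts it had 18.5% ± 0.179, and in the second quantification 15.9% ± 2.74 of TPM, where Ctnnb1-201 had 64.9% ± 1.95. Transcripts of types other than protein-coding made up 40.8% ± 0.509 of the TPM of Ctnnb1. Such types reached 20% in 2 of the 10 genes, Ctnnb1 and Jup, and in 33.5% of protein-coding genes at this level.

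For Jup, Jup-201 held 76.8% ± 2.66 of TPM and 93.6% ± 1.07 of counts. The noncoding Jup-205, shown above, was given 19.6% of TPM in replicate 1 and 10.6% in replicate 2 by the first quantification and 0 by the second. The second gave 30.2% ± 0.532 to another short noncoding form, Jup-203, which the first put at 0.81% ± 0.0495, and 17.5% ± 0.472 to the coding Jup-202. Its total for Jup was 1.34 and 1.40 times that of the first, the largest such ratio of the 10. Ctnna1 was similar: Ctnna1-201 led with 69.3% ± 0.247 of TPM and 92.1% ± 0.814 of counts. Beside it the first quantification put 19.7% ± 2.08 on the incomplete 519-base Ctnna1-208 and the second put 26.8% ± 0.771 on the incomplete Ctnna1-204. The second quantification was at least 1.2-fold above the first for Jup, Ctnna1 and Ctnna3, that is 3 of the 10 genes, and for 47.2% of all genes. None of the 10 was as far below, where 7.15% of all genes were.

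Pkp2 and Vcl were read almost wholly from 1 coding transcript. Pkp2-201 held 93.4% ± 0.212 of TPM, with the retained introns Pkp2-202 and Pkp2-203 at 4.50% ± 0.141 and 2.08% ± 0.354, and the second quantification gave nearly the same, 93.7% ± 0.0655 for Pkp2-201. Vcl-201 held 97.5% ± 0.290, and 94.5% ± 0.993 in the second quantification. It codes for 1066 codons. Muscle also makes metavinculin, a longer splice form with an added exon. Vcl-201 is the only long coding transcript of Vcl in this annotation, so the tables do not separate the 2 forms. Vcl also shares 2090 exonic bases with Ap3m1 on the opposite strand (29.1 and 25.3 TPM), and the sources used here do not say how strand entered the counting.

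Ctnna3 has 2 starts 27.4 kb apart ahead of the same 895 codons. Ctnna3-202, from the downstream start, held 84.5% of TPM in replicate 1 and 94.0% in replicate 2. Ctnna3-203, from the upstream start, held 10.8% and 0. The second quantification gave it 26.2% and 13.5%, so the downstream start led in all 4 values while the part of the upstream start, marked by 82 bases of its own, was not stable. The 250 bases before each start are shown, from RefSeq's promoters on GRCm38.p6, which hold 5 of the 10 genes. RefSeq places the downstream start 1 base after that of Ctnna3-202. The motif GATA, searched on both strands as GATA and TATC, is in capitals. The upstream window (chr10:63429848-63430097) has no GATA and 36 CG dinucleotides, a number that 2.58% of 32851 promoter windows reach. The downstream window (chr10:63457261-63457510) has 2 GATA and 7 CG dinucleotides. At least 1 GATA occurs in 53.6% of all windows and 2 or more in 24.2%. The median window has 6 CG dinucleotides.
Ctnna3 upstream start: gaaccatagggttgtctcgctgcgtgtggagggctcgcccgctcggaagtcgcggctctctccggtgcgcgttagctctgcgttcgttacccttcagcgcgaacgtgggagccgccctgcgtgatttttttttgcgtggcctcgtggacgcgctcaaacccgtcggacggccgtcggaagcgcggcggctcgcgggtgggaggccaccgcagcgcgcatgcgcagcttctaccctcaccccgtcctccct
Ctnna3 downstream start: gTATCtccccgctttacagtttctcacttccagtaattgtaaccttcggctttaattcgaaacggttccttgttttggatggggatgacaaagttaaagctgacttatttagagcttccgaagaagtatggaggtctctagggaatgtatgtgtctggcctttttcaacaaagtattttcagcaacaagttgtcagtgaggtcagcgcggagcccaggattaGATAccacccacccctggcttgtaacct

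The expected counts of all 10 genes were whole numbers in both libraries (within 0.005), as for 80.9% of all genes. Counts of their transcripts were fractional, since transcripts of a gene share most of their bases. For 2 genes, Dsp and Cdh2, the deposited TPM lay just above the deposited interval, which belongs to the posterior mean: in replicate 1, Dsp had a TPM of 149.04 and an interval from 144 to 148. In long coding transcripts alone the order became Ctnna1 (167 ± 7.65 TPM), Dsp (156 ± 11.8), Ctnnb1 (122 ± 4.21), Cdh2 (104 ± 7.57), Jup (82.7 ± 6.41), Vcl (55.5 ± 2.30), Pkp2 (46.0 ± 3.86), Ctnna3 (26.3 ± 0.318), Dsc2 (17.0 ± 1.26) and Dsg2 (15.9 ± 0.488). Compared with all transcripts, Dsp passed Ctnnb1 and Dsc2 passed Dsg2, and in this measure the libraries of Dsc2 and Dsg2 overlapped.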

How the data were processed

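Total RNA from 2 heart libraries was read from deposited tables on mm10 with GENCODE M21, per the deposited readme files. The sources used here name no aligner, program or version. The first quantification (columns as RSEM writes them), per the file headers, holds expected counts, TPM, a posterior mean TPM with interval bounds (a score of precision) and, for each transcript, its percent within the gene. The second (columns as kallisto writes them), per the file headers, holds estimated counts and TPM, summed here per gene, and 86 genes have no row in it. Nor do they say how reads of CAST/EiJ alleles were treated. TPM was summarised as mean ± SD (n = 2). Differences used log2(TPM + 1), less the median over the genes whose mean reached 1 TPM. Intervals are exact Clopper-Pearson at 95%, on 36197643 and 34358598 counts of annotated genes, and cover counting error only. Transcripts were compared over genes whose mean reached 10 TPM. Scaling alternatives used edgeR 4.0.16 (TMM) and DESeq2 1.42.0 size factors on rounded counts, and computations Python 3.11.15 with pandas 2.3.3 and scipy 1.17.1. All 10 genes, all members of their families, the 4 highest genes of other lists and leading transcripts were to be named, and 1 result that this rule covers is not reported here. The genes and lists were chosen with earlier results of these data known.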

Additional observations from a re-analysis of the deposited data

How the results depend on the processing

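No paired analysis was possible because there was 1 group. All 10 genes stayed at 1 TPM or more, and none was 1.2-fold apart, under every alternative tried. With the second quantification the log2 ratio of Dsg2 to Dsc2 was 0.18 and of Ctnnb1 to Jup 0.62, and the shares of Dsg2, Dsp and Cdh2 in their families were 99.8%, 98.6% and 33.3%. With the posterior mean TPM the shares of Dsg2, Dsc2 and Dsp were 99.7%, 98.8% and 98.6%. In protein-coding transcripts alone the log2 ratios were 0.71 (Ctnnb1 to Jup) and 3.08 (Ctnna1 to Ctnna3), and the shares of Pkp2, Dsp, Ctnna3 and Cdh2 were 69.5%, 98.7%, 10.6% and 40.1%. In long coding transcripts, an alternative chosen after seeing the data, the ratio of Dsg2 to Dsc2 reversed to -0.10, Ctnnb1 to Jup was 0.56 and Ctnna1 to Ctnna3 2.67, and the shares of Dsg2, Pkp2, Dsp, Ctnna3 and Cdh2 were 99.8%, 71.0%, 98.7%, 13.6% and 40.6%. The causes were not tested, beyond the loss of short transcripts that the last 2 settings impose. Without 1 library the number of genes with a leading transcript of at least 50% was 8 or 9, being 8 without replicate 1. Leaving out a library put the ratio of Dsg2 to Dsc2 between 0.34 and 0.63. The second quantification moved the level of 9 of the 10 genes by more than the SD between libraries. An SD of 2 libraries can be small: Ctnnb1 counted as moved from 228 to 223 TPM, beside an SD of 2.35. The share of all genes moved by this rule was not computed. TPM rescaled to the sum over nuclear protein-coding genes moved all 10 upward, Ctnna1 to 562 TPM, Dsp to 367 and Dsc2 to 40.9, by a factor common to all genes of a library, so order and ratios between genes are not affected by it. With 2 libraries that carry the same donor identifier, spread between animals was barely sampled, if at all. Depth limited only the genes with few counts.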

Other observations

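The turnover machinery and outputs of beta-catenin were measured beside it, as a list of 14 genes of which 10 had a mean TPM of at least 1. Among genes of the complex that marks beta-catenin for destruction, the kinase Csnk1a1 was at 108 and 109 TPM in replicates 1 and 2, the scaffold Apc at 25.8 and 24.7, the kinase Gsk3b at 22.8 and 22.5, and Btrc, which recruits the ubiquitin ligase, at 8.70 and 9.40. The scaffold Axin1 was lower, at 6.74 and 6.33 TPM, and the transcription factor genes Tcf7l2 and Tcf7l1 were at 9.52 and 8.39 and at 7.47 and 6.20. Of genes known as targets of Wnt signalling, Znrf3 was at 5.29 and 5.41 TPM. Axin2 was at 2.38 and 3.45 TPM, Nkd1 at 1.25 and 1.86 and Lgr5 at 0.07 and 0.15. The rest of the list had means below 1 TPM and a higher TPM in replicate 1. Tcf7 was at 1.36 and 0.62 TPM, Lef1 at 0.30 and 0.14 and Rnf43 at 0.28 and 0.11. Counts were 87 and 37 for Tcf7 but 11 and 11 for Lef1, 10 and 9 for Rnf43 and 6 and 5 for Lgr5. In protein-coding transcripts alone Lef1 (0.09 and 0.14 TPM) and Rnf43 (0.05 and 0.07) were higher in replicate 2, and Lgr5 (0.05 and 0.03) in replicate 1. Axin1, Tcf7l2, Tcf7l1, Znrf3, Axin2, Nkd1, Lgr5, Tcf7, Lef1 and Rnf43 were chosen after their values were seen. Axin2 and Nkd1 were the 2 genes of the list at least 1.2-fold higher in replicate 2 by TPM, where 8.29% of all genes were. Axin2 had fewer counts there, 199 in replicate 1 and 169 in replicate 2.

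Among the 24 other disc genes, Gja1 and Xirp1 were at least 1.2-fold higher in replicate 2, with Xirp1, an actin-binding disc gene chosen after its values were seen, at 44.0 and 56.4 TPM. Of all genes 8.29% were so.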
